A study of Homo sapiens with 2 samples.

Results

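Read counts of 7 genes that drive or gate the entry of cells into S phase were compared in HT-29 cells, an established human colon adenocarcinoma line. The 7 are the transcription factor genes MYC, MYB and E2F2, the kinase gene CDK2 with its cyclin CCNE2 and its activating phosphatase CDC25A, and the ubiquitin ligase subunit gene SKP2. They were taken by symbol from the authors' deposited table of genes that differed between a library of scramble control cells and a library of cells with GPR126 knocked down by RNA interference. All 7 were found, among 2007 genes in the table. GPR126 (ADGRG6) belongs to the adhesion class of G protein-coupled receptors. The labels give 1 library to each group and name no hairpin sequence, clone, time or replicate culture, so no difference below has a replicate check. The authors listed only genes with an absolute log2 ratio of at least 1 and an FDR under 0.001, and the 7 genes were chosen by name among them with their log2 ratios and read counts known. That they differ is therefore part of how they were chosen, and their values are given as a description. The gene lists set beside them below were also chosen with earlier results of these data known, so their splits are likewise a description.

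The decision to replicate DNA is taken in G1. Mitogen signals raise MYC and the D-type cyclins, cyclin-dependent kinases phosphorylate RB, and RB then releases the E2F factors that transcribe the genes of S phase. Cyclin E bound to CDK2 completes RB phosphorylation and fires replication origins, CDC25A removes the inhibitory phosphates from CDK2, and the SKP2 ubiquitin ligase marks the CDK inhibitor CDKN1B for destruction. In the colon, MYC is a classical target of Wnt signalling, and MYB is known for maintaining the progenitor cells of the crypt.

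Promoter sequence from RefSeq (GRCh38.p14) was available for MYB, E2F2, SKP2 and CDC25A. The 120 bases before each annotated start are shown because E2F2 and CDC25A, both lower in the knockdown library, carry the same E2F motif at nearly the same distance from the start. Capitals mark the E2F motif TTTGGCGC and, in CDC25A, the CCAAT box read on the opposite strand. The windows lie at chr6:135181188-135181307 (plus strand) for MYB, chr1:23531234-23531353 (minus strand) for E2F2, chr5:36151991-36152110 (plus strand) for SKP2 and chr3:48188418-48188537 (minus strand) for CDC25A.
E2F2: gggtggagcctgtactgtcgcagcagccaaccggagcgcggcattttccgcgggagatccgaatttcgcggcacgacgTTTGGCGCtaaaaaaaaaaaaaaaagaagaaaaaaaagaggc
CDC25A: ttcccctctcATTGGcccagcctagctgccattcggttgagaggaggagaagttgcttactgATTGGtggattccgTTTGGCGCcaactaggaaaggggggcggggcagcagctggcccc
SKP2: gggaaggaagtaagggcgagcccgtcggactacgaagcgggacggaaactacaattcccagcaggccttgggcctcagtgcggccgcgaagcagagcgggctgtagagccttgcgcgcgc
MYB: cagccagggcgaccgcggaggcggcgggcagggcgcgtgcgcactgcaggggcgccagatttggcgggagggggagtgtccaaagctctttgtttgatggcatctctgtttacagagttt

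Depth was similar, at 5753320 reads (scramble) and 6010192 reads (knockdown), of which 15.8% and 11.5% fell in the deposited genes. GPR126 itself had 68 reads in the scramble library and 2 in the library labelled as its knockdown. Levels are given as reads per 1e6 library reads (RPM). They contain no gene length, so they compare 1 gene between libraries and not 1 gene with another. A fold is the ratio of RPM values, with an exact 95% interval that covers counting error only. None of 13 colon epithelial, 10 leukocyte and 6 endothelial markers was in the table. The table holds only differing genes, so the cell type could not be checked from it. Of 7 fibroblast markers COL1A1 was listed, at 14.4 RPM in the scramble and 37.8 RPM in the knockdown library, and its part in the values below was not tested.

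MYC was the single gene of the set that was higher in the knockdown library, and the other 6 were lower; of all deposited genes 33.3% were higher and 66.7% lower. The same 1 and 6 genes passed 2-fold, as did 32.9% (higher) and 66.4% (lower) of the table. In RNA from a whole culture, fewer cells that express a gene and less of its RNA per cell cannot be told apart. At least 4-fold, none was higher and 3 were lower, namely MYB, E2F2 and SKP2, against 8.27% and 8.17% of all deposited genes. The counting interval lay wholly beyond 2-fold for MYC and for 4 of the lower genes (MYB, E2F2, SKP2 and CDK2), against 16.4% and 33.1% of the table. CDC25A and CCNE2 sat just inside the authors' 2-fold limit.

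MYC (Entrez 4609), which encodes a basic helix-loop-helix factor that promotes growth and ribosome production, was counted 610 times in the scramble library, or 106 RPM (interval 97.8 to 115). In the knockdown library it had 2405 reads, or 400.2 RPM (384 to 416). The knockdown level was 3.77 times the scramble level (3.45 to 4.13), a log2 ratio of 1.92. The intervals of the libraries lie far apart, and MYC is a well-counted gene in both. Of the higher genes in the table, 27.7% had a larger ratio than MYC.

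MYB (Entrez 4602) encodes a transcription factor of progenitor cells and was the least counted of the 7 genes. It had 28 reads in the scramble library, or 4.87 RPM (3.23 to 7.03), and none in the knockdown library. A count of 0 allows up to 3 reads, or 0.499 RPM, and against that limit the scramble value was at least 9.75-fold higher. This bound leaves out the counting error of the 28 scramble reads; with it, the exact 95% interval of the fold begins at 7.42. It was 1 of 8 deposited genes (0.399%) without a read in the knockdown library. Its expression there was not detectable at this depth, which does not show that it was absent.

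E2F2 (Entrez 1870), an activator of the E2F family, had 138 scramble reads, or 24.0 RPM (20.2 to 28.3), and 26 knockdown reads, or 4.33 RPM (2.83 to 6.34). It was 5.54-fold lower (3.63 to 8.79). SKP2 (Entrez 6502), the substrate-binding subunit of an SCF ubiquitin ligase, had 254 reads, or 44.1 RPM (38.9 to 49.9), against 48 reads, or 7.99 RPM (5.89 to 10.6). It was 5.53-fold lower (4.05 to 7.69). These genes, a transcription factor and a ligase subunit, shared nearly the same log2 ratio, -2.45 for both. Only 4.18% of the lower genes had a lower ratio than E2F2, and 4.11% had a lower ratio than SKP2.

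CDK2 (Entrez 1017), the kinase of the G1 to S transition, had 540 scramble reads, or 93.9 RPM (86.1 to 102), and 190 knockdown reads, or 31.6 RPM (27.3 to 36.4). It was 2.97-fold lower (2.51 to 3.52), a middling ratio, since 31.1% of the lower genes lay below it. CCNE2 (Entrez 9134), which encodes cyclin E2, an activating partner of CDK2, went from 189 reads, or 32.9 RPM (28.3 to 37.9), to 95 reads, or 15.8 RPM (12.8 to 19.3). That was 2.08-fold lower (1.62 to 2.69). CDC25A (Entrez 993), the phosphatase that activates CDK2, went from 79 reads, or 13.7 RPM (10.9 to 17.1), to 39 reads, or 6.49 RPM (4.61 to 8.87), and was 2.12-fold lower (1.42 to 3.19). The kinase, its cyclin and its phosphatase were thus all lower, and for the cyclin and the phosphatase the counting interval reached below 2-fold. Exons of CCNE2 overlap those of INTS8 on the opposite strand over 1629 bases in GENCODE 29 (GRCh38), and exons of CDK2 overlap those of PMEL over 89 bases and an antisense gene over 565. Exons of MYB overlap its antisense gene MYB-AS1 over 103 bases. Whether counting used strand is not stated, so reads of these partners in the shared stretches cannot be told apart. Among the lower genes 91.6% had a lower ratio than CCNE2 and 88.2% a lower ratio than CDC25A.

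**Figure D1:**
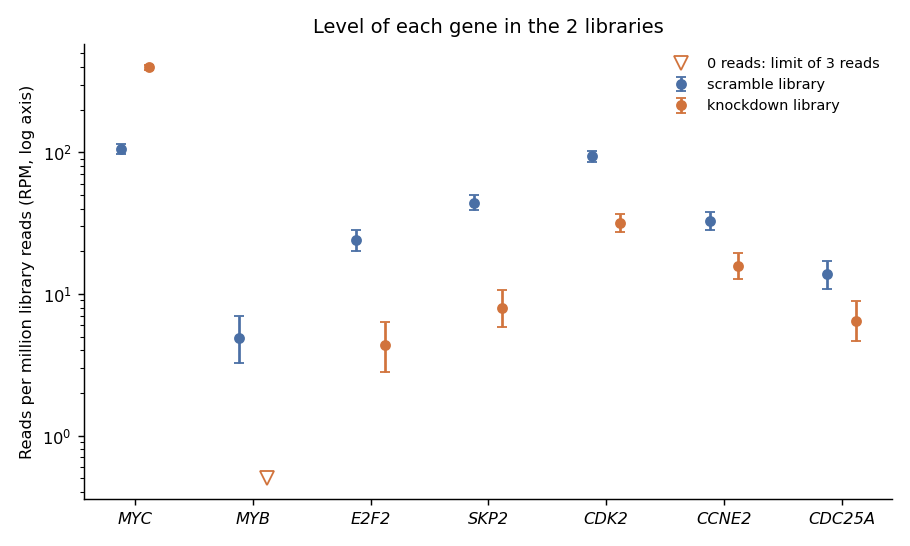
Level of each gene in RPM (log axis) in the scramble and the knockdown library, 1 library each, with exact 95% Poisson intervals; the open triangle is the limit of 3 reads (0.499 RPM) for MYB, which had no knockdown read. MYC is the one gene whose knockdown point lies above its scramble point, and no pair of intervals overlaps.

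**Figure D2:**
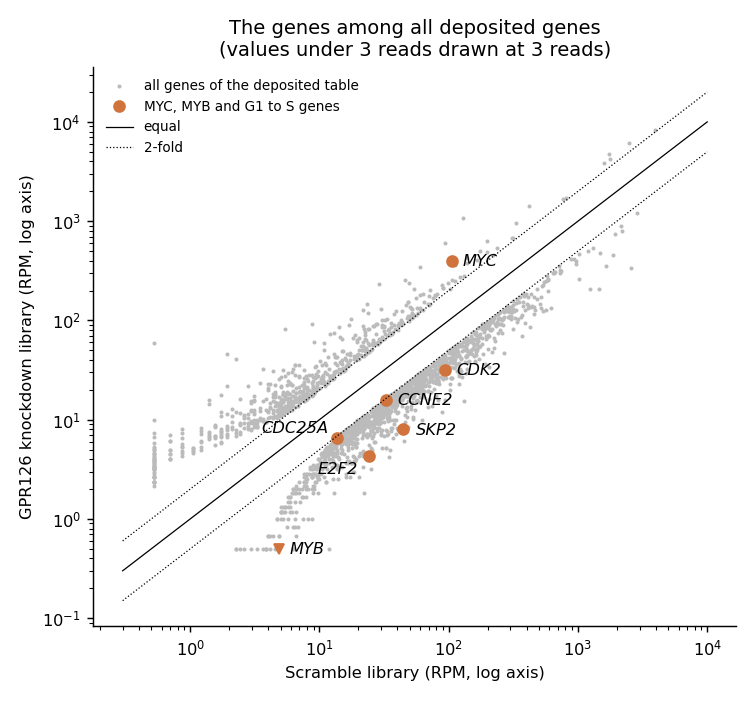
Each dot is 1 of the 2007 deposited genes, by its RPM in the scramble (x, log axis) and knockdown library (y, log axis), with values under 3 reads drawn at 3 reads; the lines mark equality and 2-fold. CCNE2 and CDC25A lie on the 2-fold edge that limits the table, and MYC, at 400.2 RPM in the knockdown library, lies clear of the 2-fold line.

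The ratios of the genes to one another do not depend on how the libraries are scaled. For the 21 pairs among the 7 genes, the knockdown-over-scramble ratio of one was divided by that of the other, with an exact 95% interval for counting error. In 18 pairs the interval excluded 1. The 3 exceptions were E2F2 with SKP2 (0.997, 0.567 to 1.72), CDC25A with CDK2 (1.40, 0.898 to 2.16) and CCNE2 with CDC25A (1.02, 0.632 to 1.66). From the lowest ratio upward, MYB came first, then E2F2 and SKP2, whose order could not be told, and MYC came last. Between them, CCNE2 lay above CDK2, whereas CDC25A could be placed neither against CDK2 nor against CCNE2. The ratio of CCNE2 was 1.43 times that of its kinase CDK2 (1.05 to 1.94), an interval that nearly reaches 1. MYC was 11.2 times higher relative to CDK2 in the knockdown library than in the scramble library (9.25 to 13.6), and 20.9 times higher relative to SKP2 (15.04 to 29.4). In reads, MYC made up 33.2% of the 1838 reads of the 7 genes in the scramble library (exact interval 31.0 to 35.4) and 85.8% of 2803 in the knockdown library (84.5 to 87.1); these are shares of reads and not of transcripts, as no gene length enters them.

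The direction of 2 genes depended on the scaling. With each library scaled to its total, as above, the median log2 ratio of all deposited genes was -1.16. Setting that median to 0 gave CCNE2 a log2 ratio of 0.11 and CDC25A 0.087, so both turned. E2F2 at -1.29, SKP2 at -1.30 and CDK2 at -0.41 stayed lower than the typical deposited gene, and MYC reached 3.07. This scaling rests on selected genes, most of which were lower, and serves as a reference point.

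**Figure D3:**
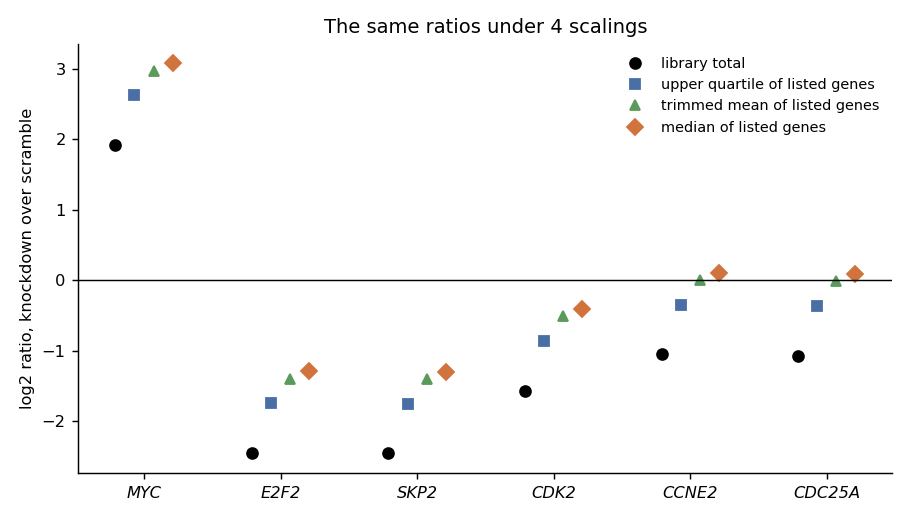
Log2 ratio of knockdown over scramble for 6 genes with each library scaled to its total (circles) or to the deposited genes by their median, their trimmed mean or their upper quartile; MYB is left out because its value depends on the pseudocount. MYC lies above 0 and E2F2, SKP2 and CDK2 lie below 0 under all 4 scalings, while CCNE2 and CDC25A come to within 0.11 of 0 under the trimmed mean and the median.

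Around MYC, 4 of 20 genes of its network were listed, 3 higher and 1 lower, beside 33.3% higher and 66.7% lower over the deposited genes. MXD1 and MXD4 encode repressors that compete with MYC for its partner MAX. MXD1 went from 37 to 94 reads (2.43-fold higher, 1.65 to 3.66), and MXD4 from 65 to 215 (3.17-fold higher, 2.39 to 4.25). PIM1, a kinase known to stabilise MYC, was 2.76-fold higher (1.92 to 4.03), and RUVBL1, a chromatin helicase subunit that MYC binds, was 2.19-fold lower (1.83 to 2.63). MAX itself was not listed.

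Textbook target genes of MYC were listed against the direction of MYC. Of 31 genes that MYC is known to induce, 12 were listed. Each of these 12 was lower, and their median log2 ratio was -1.26. Over the deposited genes 66.7% were lower, and the median was -1.16, or -1.36 among the lower genes alone. NCL, which encodes the nucleolar protein nucleolin, went from 7577 to 3219 reads (2.46-fold lower, 2.36 to 2.56). NME1, a nucleoside diphosphate kinase gene, was 3.43-fold lower (3.18 to 3.70), and FBL, the methyltransferase fibrillarin of the box C/D snoRNPs, was 2.66-fold lower (2.41 to 2.94). MRTO4, a ribosome assembly factor, had the lowest ratio of the 12 (3.62-fold lower, 2.86 to 4.61). The other 19, among them ODC1, CAD and NPM1, were not listed. Of 14 genes that MYC is known to repress, 9 were listed, 8 higher and 1 lower, with a median of 1.18. Of all deposited genes 33.3% were higher, and the median of those higher genes was 1.46. The stress-responsive gene NDRG1 was 4.88-fold higher (4.29 to 5.57), the CDK inhibitor gene CDKN2B had 16 and 55 reads (3.29-fold higher, 1.86 to 6.15), and CDKN1A had 700 and 1656 reads (2.26-fold higher, 2.07 to 2.48). The exception was CDKN2C, with 36 and 5 reads (7.52-fold lower, 2.94 to 24.6). When the median ratio of the deposited genes was set to 0, the median of the induced genes was -0.099, close to the typical deposited gene.

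A list of 13 genes held the MYB family, the MuvB complex, which controls cell cycle genes, and factors that work with that complex. Of these, 4 were listed, 3 lower and 1 higher. MYBL2 was the only MYB family gene among the 4, and none was a MuvB subunit. Of all deposited genes 66.7% were lower. MYBL2, the family member that acts in dividing cells, went from 265 to 67 reads (4.13-fold lower, 3.15 to 5.49). FOXM1, a factor of the G2 genes, was 3.67-fold lower (3.07 to 4.41). MYB and MYBL2 were thus both lower, and MYBL1 was not listed. The other 2 listed genes, TFDP1 and E2F5, are counted again in the RB, E2F and DP list below.

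In the RB, E2F and DP list, 7 of 12 genes were listed beside E2F2, 5 lower and 2 higher, with a median of -1.25. Over the deposited genes 66.7% were lower and the median was -1.16, so the list lay near the whole table. The activator E2F1 had 224 and 98 reads (2.39-fold lower, 1.88 to 3.06), a smaller difference than that of E2F2. The atypical repressors E2F7 and E2F8 were 2.29-fold (1.79 to 2.94) and 3.05-fold lower (2.07 to 4.58), the repressor E2F6 was 2.65-fold lower (2.08 to 3.40), and the dimer partner TFDP1 2.68-fold lower (2.30 to 3.14). E2F5, which binds the RB relatives in resting cells, had 59 and 154 reads (2.50-fold higher, 1.84 to 3.43), and the second dimer partner TFDP2 had 18 and 75 (3.99-fold higher, 2.36 to 7.09). RB1, RBL1, RBL2, E2F3 and E2F4 were not listed.

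All 22 listed genes of 32 textbook E2F targets were lower, with a median of -1.81. Over the deposited genes 66.7% were lower, and the median was -1.16, or -1.36 among the lower genes alone. MYBL2 and E2F1, counted in the lists above, are among the 22. The origin recognition gene ORC1 had the lowest ratio, from 540 to 95 reads (5.94-fold lower, 4.77 to 7.47), and UHRF1, which maintains DNA methylation after replication, was 2.37-fold lower (1.89 to 2.98). CDC6 and CDT1, which load the replicative helicase at origins, were 2.78-fold (2.39 to 3.24) and 3.45-fold lower (2.88 to 4.15). Of 11 mitosis markers 6 were listed. These 6 were lower, beside the same 66.7%, and their median of -1.38 was near that of the lower deposited genes (-1.36).

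**Figure D4:**
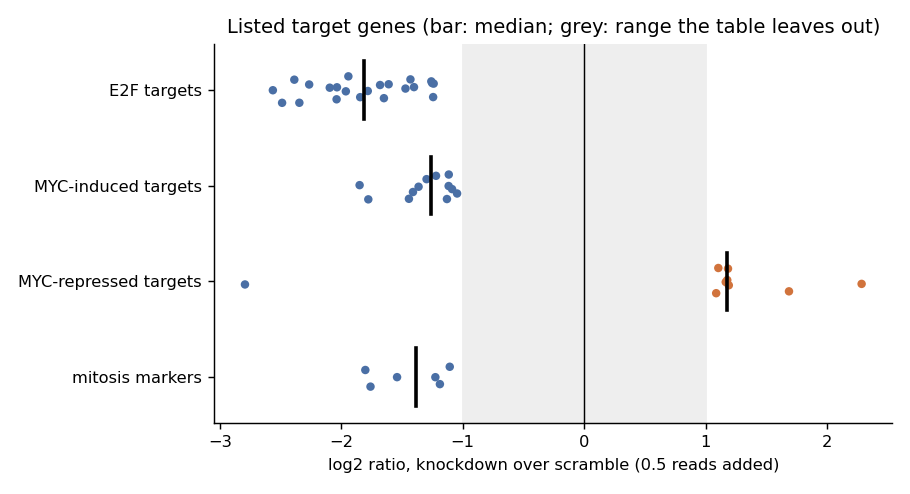
Log2 ratio (x, 0.5 reads added) of each listed gene in 4 lists, with the list median as a bar; the grey band is the range below 2-fold that the table leaves out. All 22 E2F targets and all 12 MYC-induced targets lie to the left, and 8 of 9 MYC-repressed targets lie to the right.

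Of the 14 other G1 to S cyclin and kinase genes none was listed, including CCND1, CDK4, CDK6, CCNE1 and CCNA2. Nothing can be said of their levels here. Of 10 genes that restrain cyclin-dependent kinases, of G1 to S or of later phases, 5 were listed, 3 higher and 2 lower. Their median was 1.18, and 4 of them are also in the MYC-repressed list. Over the deposited genes 33.3% were higher. Besides CDKN1A, CDKN2B and CDKN2C, CDKN1C was 2.29-fold higher (1.74 to 3.04), and PKMYT1, a kinase that adds inhibitory phosphates to CDK1, was 2.85-fold lower (2.29 to 3.58). CDKN1B, the best known SKP2 substrate, was not listed.

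CDC25A is marked for destruction by CHEK1, the replication checkpoint kinase, which had 222 and 78 reads (2.97-fold lower, 2.29 to 3.90). ATM, a kinase of the response to DNA breaks, had 51 and 13 reads (4.10-fold lower, 2.20 to 8.21). The other 7 genes of this list, CDC25B and CDC25C among them, were not listed. CHEK1 and ATM were thus both lower, as were 66.7% of all deposited genes. Of 14 SCF genes and regulators 4 were listed beside SKP2, 3 lower and 1 higher, a split close to the 66.7% lower over the whole table. FBXO5, an inhibitor of the anaphase promoting complex, was 3.54-fold lower (2.88 to 4.39), COPS5, which removes NEDD8 from cullins, 3.42-fold lower (2.76 to 4.25), and CAND1, the cullin exchange factor, 2.51-fold lower (2.13 to 2.97). CDC34, a ubiquitin-conjugating enzyme of the SCF ligases, was 2.14-fold higher (1.84 to 2.50). SKP1, CUL1 and CKS1B, which work with SKP2 in its ligase, were not listed.

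**Figure D5:**
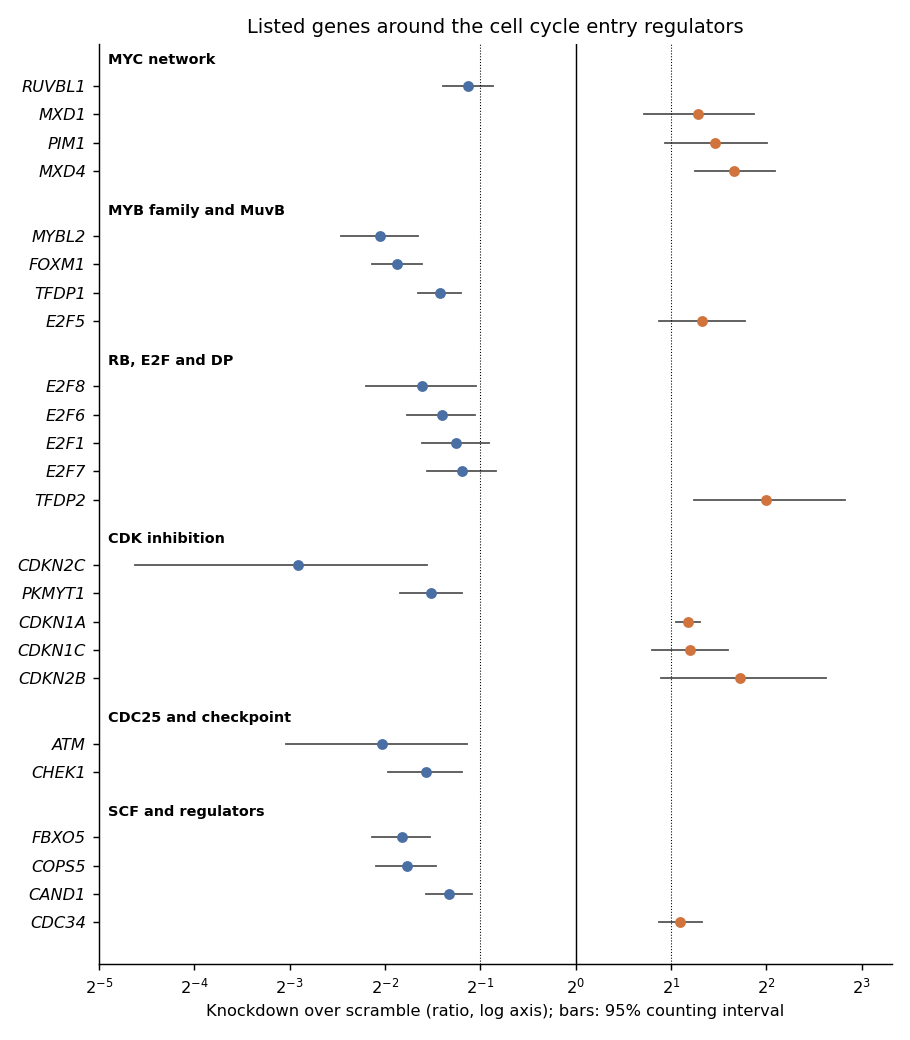
Ratio of knockdown over scramble (log axis) with its 95% counting interval for the listed genes around the 7 regulators, by role; dotted lines mark 2-fold and each gene is drawn once. Of the groups drawn, the MYC network and the genes that restrain cyclin-dependent kinases each have 3 higher genes. In the other groups drawn lower genes outnumber higher ones, as they do over all deposited genes (66.7% lower).

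Of 17 fixed genes of mitogen or Wnt signalling, 4 were listed, 2 higher and 2 lower. Over the deposited genes 33.3% were higher and 66.7% lower. JUN, an AP-1 factor of the immediate early response, had 62 and 355 reads (5.48-fold higher, 4.18 to 7.30), and JUNB was 2.67-fold higher (2.27 to 3.14). AXIN2, like MYC a Wnt target, was 3.15-fold lower (2.32 to 4.33), and MTOR, a growth kinase, 2.49-fold lower (2.05 to 3.03). MYC and AXIN2 thus lay on opposite sides, AXIN2 on the side of most deposited genes. Wnt signalling was not tested.

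In the promoter windows of 250 bases before to 50 bases after the start, the E2F motif was searched as TTTCGCGC or TTTGGCGC on both strands. Near variants of these letters, such as TTTGGCGG in the MYB window, were not counted. The motif was in 2 of the 4 windows, those of E2F2 and CDC25A, and in 1.18% of the 27305 promoters in the RefSeq table. The first base lay at -42 in E2F2 and at -44 in CDC25A, counted from -1 just before the start, and both matches read forward. Among deposited genes the motif was in 5.26% of 1121 promoters of lower genes and in 0.577% of 520 promoters of higher genes. The E-box CACGTG, the letters that MYC and MAX bind, was in none of the 4 windows and in 7.43% of all promoters. Among deposited genes it was in 13.5% of the promoters of lower genes and in 7.88% of those of higher genes. The CCAAT box was in CDC25A alone, at -110 and -58 on the opposite strand, against 35.7% of all promoters. The MYB letters AACNG were in MYB, E2F2 and CDC25A, but 77.1% of all promoters hold them. Neither TGACGTCA nor TTTGAA, the cAMP and cell cycle homology elements, was in any of the 4. Promoters of lower and higher deposited genes held TGACGTCA in 3.30% and 4.04%, against 1.98% of all promoters. For TTTGAA the shares were 11.7% and 8.65%, against 15.4%. A match describes the letters and shows no binding.

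For each of the 7 genes, the deposited gene with the nearest log2 ratio was sought among those of similar scramble level, over the 2 libraries. CDK2 was matched by SRRM1, a splicing coactivator gene with 535 and 188 reads, SKP2 by EXO1, an exonuclease gene with 226 and 43 reads, CCNE2 by TCF19 with 181 and 91, and CDC25A by RTKN2 with 73 and 36. E2F2 was nearest to KLHDC4 with 146 and 30 reads. MYC and MYB had no close match. The nearest to MYC, the casein kinase gene CSNK2A1, lay 0.57 away in log2 with 511 and 1355 reads, and the nearest to MYB, the cytokine gene IL10, had 26 and 3 reads.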

How the data were processed

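One deposited table of 2007 genes was used. Per the file headers, the authors deposited a raw read count per gene and library, a column headed TPM, a log2 ratio of knockdown over scramble, a p-value and an FDR. The deposited TPM equals an RPM value: count divided by library total times 1e6 within 0.005 for 100% of counts above 0, with 0 entered as 0.01. The library totals were taken from it. The sources used here do not give the aligner, counting tool, strand setting or build. The deposited p-values compare 1 library with 1 and are not used as evidence. Log2 ratios used 0.5 added reads, and counts of genes required 1 RPM in at least one library; folds used counts with exact Clopper-Pearson 95% intervals conditional on the summed count, which, like the Poisson intervals on levels, cover counting error only. No test was run, as each group held 1 library. Genes were matched by symbol or, through RefSeq names, by Entrez number. The genes and lists were chosen with earlier results of these data known. Named were the 7 genes, GPR126, listed members of the lists, and for each gene its nearest neighbour. The interval was tested on simulated counts with counting error alone, so that test does not cover variation between cultures. Alternatives covered pseudocount, floor, scaling, limits and motif search. Software was scipy 1.17.1, numpy 2.4.6, matplotlib 3.10.9 and pandas 2.3.3 under Python 3.11.15.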

Additional observations from a re-analysis of the deposited data

How the results depend on the processing

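No paired analysis was possible because only 1 library stood on each side, which also meant that none could be left out. The scalings to the upper quartile, a trimmed mean and the median of the deposited genes removed log2 shifts of -0.71, -1.06 and -1.16, by construction moving every ratio up. In that order they gave log2 ratios of 2.62, 2.97 and 3.07 for MYC, -1.74, -1.39 and -1.29 for E2F2, -1.75, -1.40 and -1.30 for SKP2, -0.86, -0.51 and -0.41 for CDK2, -0.34, 0.0049 and 0.11 for CCNE2 and -0.37, -0.016 and 0.087 for CDC25A; CCNE2 turned under 2 of them and CDC25A under 1. List medians became -1.11, -0.76 and -0.65 for E2F targets, -0.55, -0.20 and -0.099 for MYC-induced genes, 1.89, 2.24 and 2.34 for MYC-repressed genes and likewise for the CDK inhibitors, -0.54, -0.20 and -0.092 for the RB, E2F and DP list and -0.68, -0.33 and -0.22 for mitosis markers. Each left 3 of the 7 genes at least 2-fold lower and took the 1332 deposited genes 2-fold lower to 292, 149 and 112. A pseudocount of 5 moved MYB to -2.79 and CDC25A to -0.996. It left 5 of the 7 genes at least 2-fold lower, MYB among them and CDC25A not. A floor of 5 RPM also left 5, without MYB, which did not reach it. A 4-fold limit left 0 of the 7 higher and 3 lower, and 166 and 164 deposited genes. A counting interval wholly beyond 2-fold left 329 and 664, and the authors' FDR of 1e-10 left 3 of the 7 lower and 251 and 844 deposited genes. Reading motifs on the forward strand only left the MYB letters in 1 window and the CCAAT box in 0. Neither no floor, a 1.5-fold limit, a pseudocount of 0.05 nor the authors' RPM values changed the 1 higher and 6 lower genes. Depth limits MYB most, with 28 reads in all.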

Other observations

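The deposited table also carries gene ontology terms. Terms that name the G1/S transition were given to 8 deposited genes, 5 lower and 3 higher, a split close to the 66.7% lower over the whole table. All but CDC7 and POLE are in the lists above. Beside SKP2, CDC25A and CDKN2C, the lower ones were CDC7, the kinase that fires replication origins, with 56 scramble and 11 knockdown reads (5.32-fold lower, 2.76 to 11.3), and POLE, the leading strand polymerase, with 163 and 75 reads (2.27-fold lower, 1.72 to 3.03); both were named after their values were seen. The higher ones were CDC34, CDKN1A and CDKN2B. CDK2, CCNE2 and CDC25A share the term cell division, under which 59 of 61 deposited genes were lower. MYC and E2F2 share the term for sequence-specific transcription factor activity, under which 58 of 100 deposited genes were higher, whereas 33.3% of all deposited genes were.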
